A study of Homo sapiens with 9 samples.

Results

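RND1 is the target of a pair of short hairpin RNAs, sh-34 and sh-35, that were set together against a scramble control in MCF10A cells. MCF10A is a human breast epithelial line that grows indefinitely, forms no tumours and has a basal character. The comparison was the mean of the sh-34 and sh-35 group means minus the scramble mean, and it was described for genes that moved in 1 direction with each hairpin. All 9 samples of the series took part: 3 with RND1-sh-34, 3 with RND1-sh-35 and 3 with scramble control. Each had been infected with lentivirus carrying its hairpin and selected with puromycin, and total RNA was hybridized to Illumina bead arrays. Of 8931 genes tested, 1611 were called the same way in both hairpins (18%), 848 of them higher (9.5%) and 763 lower (8.54%). A gene was called when limma's Benjamini-Hochberg adjusted p, taken over all genes tested, was under 0.05 for the comparison of both hairpins and for each hairpin alone.

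RND1 belongs to the Rnd group of small GTPases. Unlike most small GTPases, Rnd proteins hydrolyse GTP poorly and stay in the active form. They oppose contraction of the actin cytoskeleton, loosen cell adhesion, and bind plexins, the receptors of semaphorins, through which R-Ras and Rap GTPases are regulated. Their activity is therefore set mainly by how much of each protein is made, modified and degraded.

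Each array held 48803 probes, of which 23.5% to 26.4% were above background, meaning a detection p under 0.01. Probes above background on at least 3 of the 9 arrays were kept, and each gene was represented by its brightest probe. Levels below are log2 normalized signals, which are comparable between arrays for 1 gene and not between genes. The median within-group SD was 0.122 on that scale. Across genes, which are not independent replicates, Pearson's r between arrays lay at 0.993 to 0.994 inside a group, against 0.96 to 0.973 for arrays of different groups. Nothing in the labels tells if replicates were separate infections or cultures, so each p-value reflects the spread among these arrays alone, part or all of which may be technical. The basal genes KRT5, KRT14, LAMB3, CDH3 and EGFR were above background on all 9 arrays, and the hormone receptor genes ESR1 and PGR on 0. KRT17 and TP63 were not analysed here.

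The transcript of RND1 itself, on chromosome 12, could not be measured. Its probe gave raw signals of 30.8, 39.5 and 28.1 with sh-34 and 27.7, 37.9 and 43.1 with sh-35, against 33.8, 49.6 and 34.4 in scramble. None of these was above background, the lowest detection p being 0.165, so the arrays do not show whether either hairpin lowered RND1. RND2 was above background on 0 arrays as well. RND3, the third Rnd gene, had 10.12, 9.87 and 10.31 with sh-34 and 9.81, 9.97 and 9.97 with sh-35, against 10.72, 10.77 and 10.63 in scramble. The hairpin arrays all lay below the scramble arrays, and RND3 fell by 0.70 on the log2 scale over both hairpins (SE 0.094; limma adjusted p = 0.00014).

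Genes of plexin and Ras signalling moved little as groups. Among 15 tested plexin, semaphorin and neuropilin genes, 0 rose and 2 fell with both hairpins (13.3%, against 8.54% of all genes). SEMA3F, a secreted semaphorin, fell by 0.68 on the log2 scale (SE 0.072; limma adjusted p = 2.6e-05). SEMA6A, a transmembrane semaphorin, was above background on no hairpin array and on 3 of 3 scramble arrays. It passed the filter through the scramble arrays alone and was at least 1.66-fold lower. PLXNB1, a plexin that binds Rnd proteins, read −0.081 (SE 0.10; limma adjusted p = 0.55) and did not pass. Of 12 tested Ras, R-Ras and Rap genes and regulators, RAP1B alone was called the same way (8.33% lower, against 8.54% of all genes). It had 7.99, 7.90 and 7.85 with sh-34 and 7.08, 7.30 and 7.39 with sh-35, against 8.25, 8.48 and 8.40 in scramble. Both hairpin groups lay below scramble for this small GTPase of integrin and cadherin adhesion, and the fall was 0.79 on the log2 scale (SE 0.086; limma adjusted p = 3.2e-05). RRAS, the R-Ras gene, read 0.38 with sh-34 and −0.11 with sh-35.

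Over all genes tested, both hairpins minus scramble called 3638 genes (40.7%), 1773 higher (19.9%) and 1865 lower (20.9%). Of these 3638, 1611 were also called with each hairpin (18%), 1656 kept 1 sign but passed with exactly 1 hairpin (18.5%), 51 passed with neither (0.571%), and 320 had hairpins of opposite sign (3.58%). The hairpins share the scramble arrays, so agreement between them is a description and not a replication. Alone, sh-34 called 3347 genes (37.5%) and sh-35 called 3731 (41.8%). The median log2 change of the 848 shared rises was 0.58, and that of the 763 shared falls was −0.54, against −0.0036 over all genes tested. A change of at least 2-fold with each hairpin was seen for 51 rises (0.571%) and 30 falls (0.336%). With median scaling in place of quantile normalization, rises made up 41% of the shared calls, against 52.6% here, and 39.6% of all calls, against 48.7% here. The genes named below as changed the same way kept the sign of their pooled change under quantile, cyclic loess and median scaling, and with the deposited series matrix. The smallest shared changes were 0.20 with sh-34 and 0.21 with sh-35 among rises, and −0.20 and −0.19 among falls.

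The hairpins differed from each other about as widely as from scramble, with 3814 genes called for sh-35 minus sh-34 (42.7%). Among the 1611 shared genes, 620 differed in size between the hairpins (38.5% of them, 6.94% of all genes tested), 398 changing more with sh-35 (4.46%) and 222 more with sh-34 (2.49%). For 991 the difference did not pass (61.5% of them, 11.1% of all). When all 6 hairpin arrays were fitted as 1 group, so that the difference between hairpins counted as error, 1563 genes were called, 827 higher and 736 lower. They included 1493 of the 1611 shared genes (92.7%). On 1159 genes every hairpin array lay above every scramble array (13%), and on 1081 every one lay below (12.1%).

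**Figure D1:**
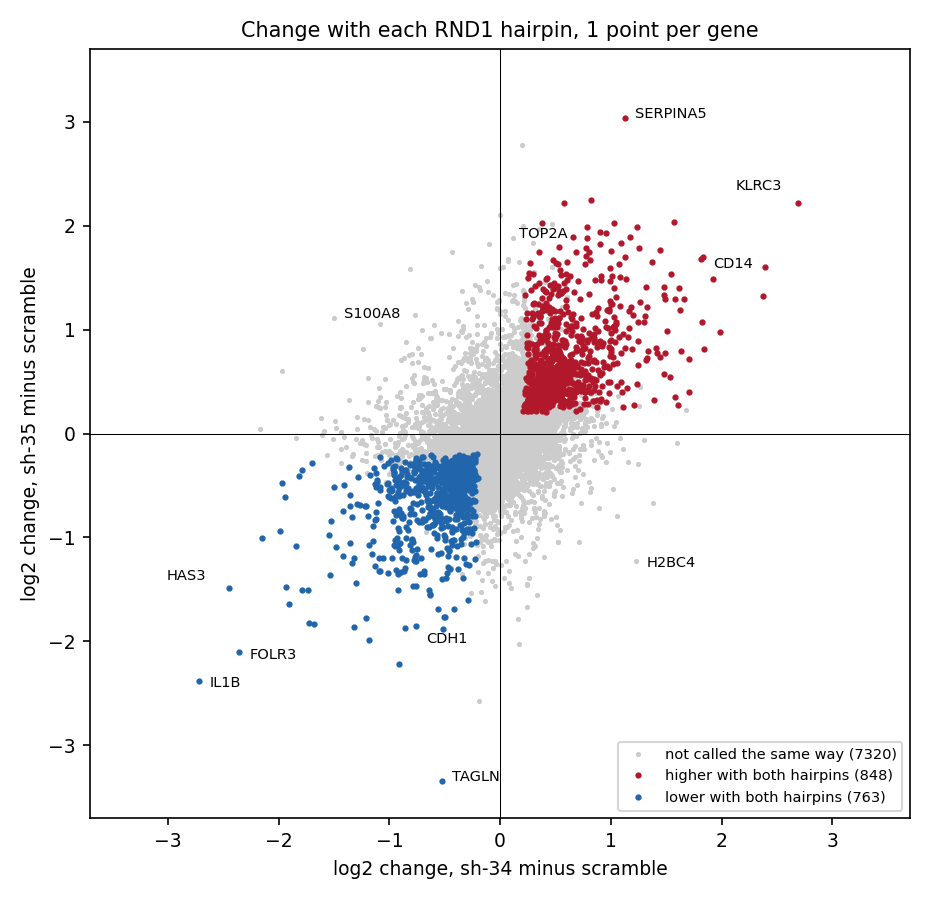
Log2 change with sh-34 minus scramble (horizontal) against log2 change with sh-35 minus scramble (vertical), 1 point for each of the 8931 genes tested. Red points are the 848 genes higher and blue points the 763 genes lower with both hairpins. Grey points are genes not called the same way, and some of them, such as S100A8 and H2BC4, lie in the corners of opposite sign. Both axes share the scramble arrays.

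The largest shared rises, ranked by the smaller of the 2 changes, included lectin-like receptors, a lipopolysaccharide co-receptor and a collagen-binding integrin. They were chosen for the size of these changes, so their values are a description. KLRC3, which encodes a lectin-like receptor of natural killer cells, had 9.27, 9.16 and 9.26 with sh-34 and 8.73, 8.95 and 8.62 with sh-35, against 6.65, 6.52 and 6.46 in scramble. Every hairpin array was above every scramble array, by 2.46 on the log2 scale or 5.49-fold (SE 0.084; limma adjusted p = 1.8e-08), and KLRC3 was above background on 1 of 3 scramble arrays. Its neighbour KLRC2 rose by 1.999 (SE 0.10; limma adjusted p = 1.7e-07), but the sequences of these genes are so alike that their probes may read each other's transcripts. CD14, a co-receptor for bacterial lipopolysaccharide, had 9.84, 9.87 and 9.71 with sh-34 and 9.63, 9.76 and 9.61 with sh-35, against 8.04, 7.94 and 7.99 in scramble. The 6 hairpin arrays lay close together and 1.74 above scramble (SE 0.070; limma adjusted p = 4.6e-08), and sh-35 minus sh-34 was −0.14 (SE 0.081; limma adjusted p = 0.2).

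ITGA10, the alpha subunit of a collagen-binding integrin, had 10.24, 10.42 and 10.35 with sh-34 and 10.46, 10.79 and 10.61 with sh-35, against 8.94, 8.90 and 9.05 in scramble. Its hairpin and scramble arrays did not overlap, and it rose by 1.51 (SE 0.084; limma adjusted p = 3.2e-07). RHOBTB3 had 7.82, 7.99 and 8.31 with sh-34 and 7.85, 7.70 and 7.91 with sh-35, against 6.51, 6.29 and 6.46 in scramble. It rose by 1.51 (SE 0.10; limma adjusted p = 1.4e-06), with no overlap, and was above background on 1 of 3 scramble arrays. CRACDL rose by 1.60 (SE 0.080; limma adjusted p = 1.7e-07) and MAOA, a monoamine oxidase, by 1.41 (SE 0.11; limma adjusted p = 3.8e-06). DYNLRB1, a dynein light chain, rose by 1.36, and its 3 other probes read 1.35 to 1.57. PLAC8 rose by 1.48.

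Some of the largest rises were above background on no scramble array, and their folds are given as lower bounds, computed against the dimmest signal that passed the background threshold. These genes passed the filter through the hairpin arrays alone, so no p-value is given for them. SYTL3, a synaptotagmin-like protein of vesicle traffic, had 7.49, 7.53 and 7.54 with sh-34 and 7.55, 7.49 and 7.52 with sh-35, against 5.97, 5.90 and 6.07 in scramble. The hairpin arrays stood within a narrow band, at least 1.83-fold above scramble. On the same footing ETNK2, an ethanolamine kinase, was at least 1.57-fold higher. SCNN1B, which encodes part of the epithelial sodium channel, was above background on 3 sh-34 and 2 sh-35 arrays and at least 1.47-fold higher. NWD1, above background on 3 sh-34 arrays and only 1 sh-35 array, was at least 1.42-fold higher. MAMDC2 was above background on only 1 sh-34 array and on 3 sh-35 arrays and at least 1.18-fold higher.

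The largest shared falls were led by interleukin-1 beta. IL1B, its gene, had 9.63, 9.61 and 9.57 with sh-34 and 10.12, 9.75 and 9.96 with sh-35, against 12.23, 12.31 and 12.43 in scramble. No array of either hairpin came near the scramble arrays, and the fall was 2.55 on the log2 scale, or 5.84-fold (SE 0.086; limma adjusted p = 1.8e-08). FOLR3, a secreted folate receptor, had 7.47, 7.25 and 6.98 with sh-34 and 7.61, 7.44 and 7.39 with sh-35, against 9.46, 9.78 and 9.52 in scramble, and fell by 2.23 (SE 0.11; limma adjusted p = 1.7e-07). CA2, the cytosolic carbonic anhydrase, had 9.05, 8.99 and 9.06 with sh-34 and 9.40, 9.32 and 9.24 with sh-35, against 10.84, 10.77 and 10.86 in scramble. The groups did not overlap, the fall was 1.65 (SE 0.066; limma adjusted p = 4.6e-08), and a second CA2 probe read −1.68.

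Enzymes of the cell surface and matrix were also among the largest falls. PRSS8, prostasin, a membrane-anchored protease that activates the epithelial sodium channel, had 9.22, 9.05 and 9.003 with sh-34 and 9.36, 9.20 and 9.24 with sh-35, against 10.54, 10.82 and 10.54 in scramble. It fell by 1.45 (SE 0.087; limma adjusted p = 5.3e-07) without overlap. HAS3, a hyaluronan synthase, had 6.84, 6.50 and 7.16 with sh-34 and 7.89, 7.92 and 7.56 with sh-35, against 9.36, 9.23 and 9.26 in scramble. Every hairpin array was below scramble, with sh-34 lowest, and the fall was 1.97 (SE 0.13; limma adjusted p = 8.9e-07). KIF3B, a motor subunit of kinesin-2, fell by 1.71 (SE 0.085; limma adjusted p = 1.7e-07). LCP1, the actin-bundling L-plastin, fell by 1.37 and RAB22A, an endosomal Rab GTPase, by 1.29. GPRC5A, a retinoic acid-induced receptor gene, fell by 1.62 (SE 0.15; limma adjusted p = 1.1e-05). KRT34, a hair keratin gene, was above background on 0 of 6 hairpin arrays and 3 of 3 scramble arrays and was at least 1.5-fold lower. By the same bound SERPINB13, a serpin of squamous epithelia, was at least 1.46-fold lower, FCRLA at least 1.64-fold, CALML3 at least 1.52-fold and IGFL1 at least 1.70-fold.

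**Figure D2:**
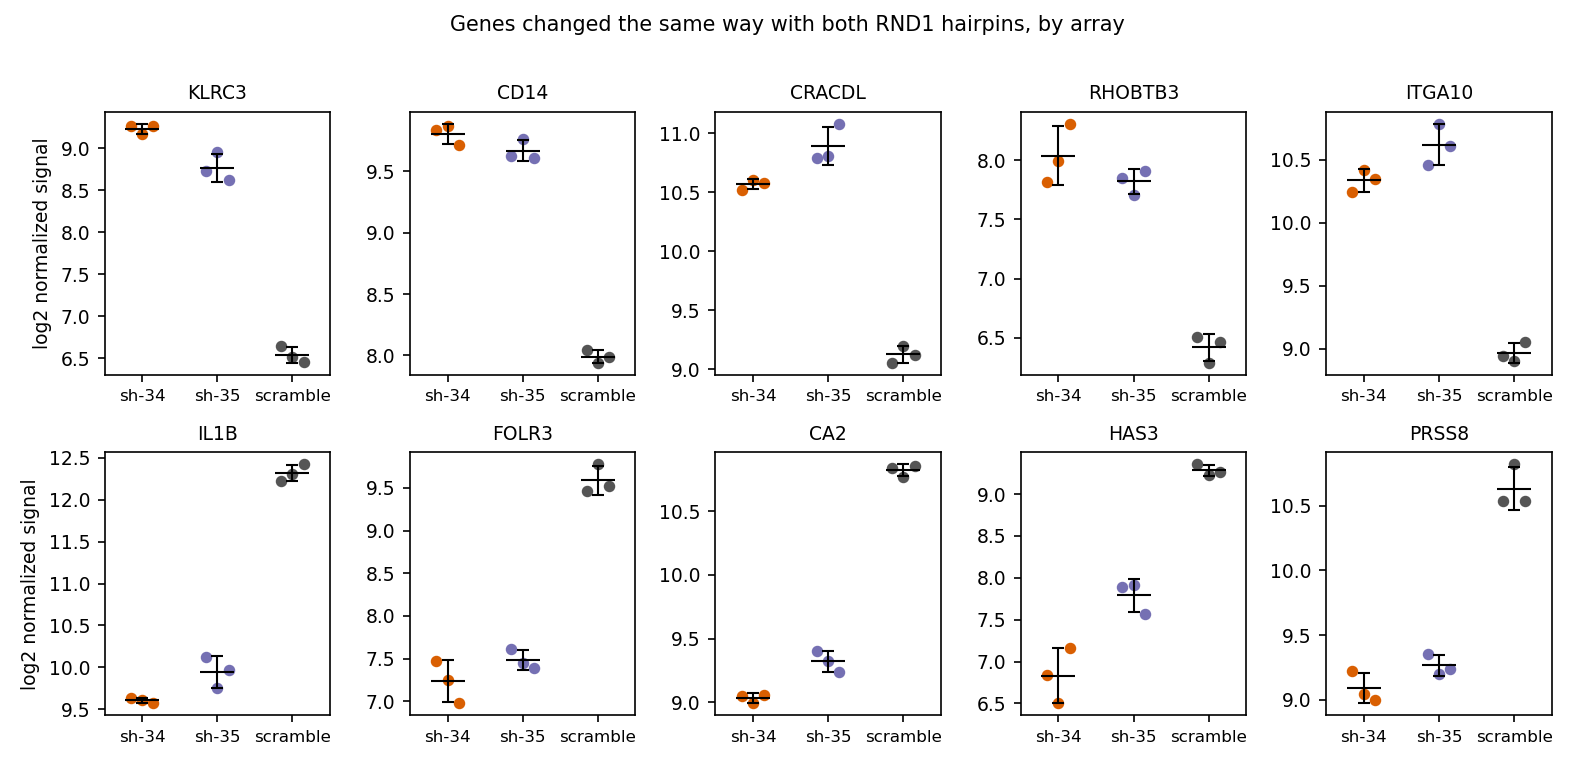
Log2 normalized signal on each array for 5 of the largest shared rises (top row) and 5 of the largest shared falls (bottom row), with sh-34 and sh-35 left of scramble. Points are arrays, long bars are group means and whiskers are 1 SD (n = 3), and each panel has its own vertical scale that does not start at 0. In every panel the 6 hairpin arrays lie to 1 side of the 3 scramble arrays, by 2.46 for KLRC3 and −2.55 for IL1B.

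Several of these genes are best known from blood cells, so the markers of other cell types were read as whole lists. Of 15 leukocyte markers, 14 had a probe and 3 were above background on any array: CD14, CSF1R and LAPTM5. PTPRC, the pan-leukocyte marker, and the other 10 were above background on 0 arrays. LAPTM5, a lysosomal membrane protein gene, was above background on 3 sh-34, 1 sh-35 and 0 scramble arrays and at least 1.39-fold higher with sh-34. By contrast CSF1R, a macrophage growth factor receptor, fell by 0.59 (SE 0.12; limma adjusted p = 0.0023). The normalized signals of the leukocyte genes, summed on the linear scale, came to 1517 to 1682 with sh-34 and 1429 to 1569.6 with sh-35, against 959 to 982 in scramble. That sum includes CD14, named above for the size of its rise, and 11 of the 14 genes were at background on every array. It therefore does not show a rise of the list as a set. For the 11 fibroblast markers, of which 5 were above background on any array, the sums were 6316 to 7589 with sh-34 and 9808 to 11077 with sh-35, against 7733 to 8468.5 in scramble. Endothelial genes were represented by PECAM1 alone, 1 of 10, and neural and muscle genes by 0 of 10. In bulk RNA, a smaller number of cells of 1 type and less RNA per cell cannot be told apart.

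E-cadherin, P-cadherin and their cytoplasmic partner plakoglobin fell with both hairpins, and further with sh-35. CDH1, which encodes E-cadherin, the adhesive receptor of adherens junctions, had 10.96, 10.81 and 10.74 with sh-34 and 9.62, 9.80 and 9.81 with sh-35, against 11.60, 11.65 and 11.54 in scramble. Each group stood apart from the others, with sh-35 lowest, and CDH1 fell by 1.31 on the log2 scale, or 2.48-fold (SE 0.076; limma adjusted p = 4.7e-07). The difference between the hairpins was −1.09 (SE 0.088; limma adjusted p = 2.9e-06). CDH3, P-cadherin, had 11.18, 11.36 and 11.30 with sh-34 and 10.49, 10.34 and 10.39 with sh-35, against 11.80, 11.84 and 11.78 in scramble, with the same order of groups and a fall of 0.96 (SE 0.069; limma adjusted p = 1.7e-06). Of 9 tested adherens junction genes, 3 fell with both hairpins (33.3%, against 8.54% of all genes) and 1 rose (11.1%, against 9.5%). The third fall was JUP, plakoglobin, at −0.77, and the rise was PKP4, a p120-catenin relative, at 0.41 (SE 0.083; limma adjusted p = 0.0022). JUP changed by −0.28 with sh-34 and −1.26 with sh-35, and in the fit of 2 groups its adjusted p was 0.087. Dimmer JUP probes read −0.16 and 0.16 with sh-34, and the pooled change of the dimmest did not pass.

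Tight junction and polarity genes gave 4 shared falls of 9 tested (44.4%, against 8.54% of all genes) and 0 rises. CRB3, Crumbs3, an apical polarity protein, had 8.38, 8.48 and 8.28 with sh-34 and 7.08, 6.97 and 7.18 with sh-35, against 9.23, 9.35 and 9.30 in scramble. The 3 groups did not overlap and the fall was 1.56 (SE 0.075; limma adjusted p = 1.7e-07). It read −0.92 with sh-34 and −2.21 with sh-35. CLDN1, a claudin of the tight junction seal, had 11.35, 11.41 and 11.43 with sh-34 and 11.33, 11.67 and 11.40 with sh-35, against 12.20, 12.05 and 12.18 in scramble. It was lower on every hairpin array, by 0.71 (SE 0.083; limma adjusted p = 5.1e-05), and sh-35 minus sh-34 was 0.073 (SE 0.096; limma adjusted p = 0.57). CLDN7 fell by 0.77 (SE 0.12; limma adjusted p = 0.00039). Among 9 desmosome genes, 2 fell with both hairpins (22.2%, against 8.54% of all genes), JUP and DSC2. DSC2, desmocollin 2, fell by 0.96 (SE 0.076; limma adjusted p = 3.7e-06).

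Genes that anchor the cell to the basement membrane gave the highest share of shared falls among the lists with at least 5 tested members. Of 7 tested hemidesmosome and laminin-332 genes, 6 fell with both hairpins (85.7%, against 8.54% of all genes) and 0 rose. DST, which encodes the hemidesmosome plakin BPAG1 among its isoforms, had 8.28, 8.20 and 8.70 with sh-34 and 8.08, 8.09 and 7.90 with sh-35, against 9.42, 9.05 and 9.27 in scramble. It fell by 1.04 (SE 0.12; limma adjusted p = 4.4e-05) without overlap. ITGA6, the alpha-6 subunit of the hemidesmosome integrin, fell by 0.56 (SE 0.087; limma adjusted p = 0.00038). ITGA3 fell by 0.49 (SE 0.079; limma adjusted p = 0.00049), and its dimmer probe read −0.14 and did not pass. LAMB3, the beta chain of laminin-332, fell by 0.56 at its brightest probe, while a dimmer probe read 0.24 and the mean of its probes read −0.16, which did not pass (limma adjusted p = 0.15).

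A list of 11 epithelial genes held EPCAM, the proteases PRSS8 and ST14 with their inhibitors, sodium channel subunits and some regulators. Of these, 5 fell with both hairpins (45.5%, against 8.54% of all genes), namely EPCAM, PRSS8, CDS1, KLF5 and GRHL3. SCNN1B, given above, rose (9.09%, against 9.5%). EPCAM, the epithelial cell adhesion molecule, had 10.16, 10.17 and 9.98 with sh-34 and 8.70, 8.75 and 8.75 with sh-35, against 10.63, 10.69 and 10.53 in scramble. The scramble arrays were highest and sh-35 lowest, and the fall was 1.198 (SE 0.071; limma adjusted p = 5.2e-07). With the hairpins as 1 group, EPCAM's adjusted p was 0.055, and sh-35 minus sh-34 was −1.37 (SE 0.082). PRSS8, described above, belonged to this list, and its sh-35 minus sh-34 of 0.18 (SE 0.10) did not pass.

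**Figure D3:**
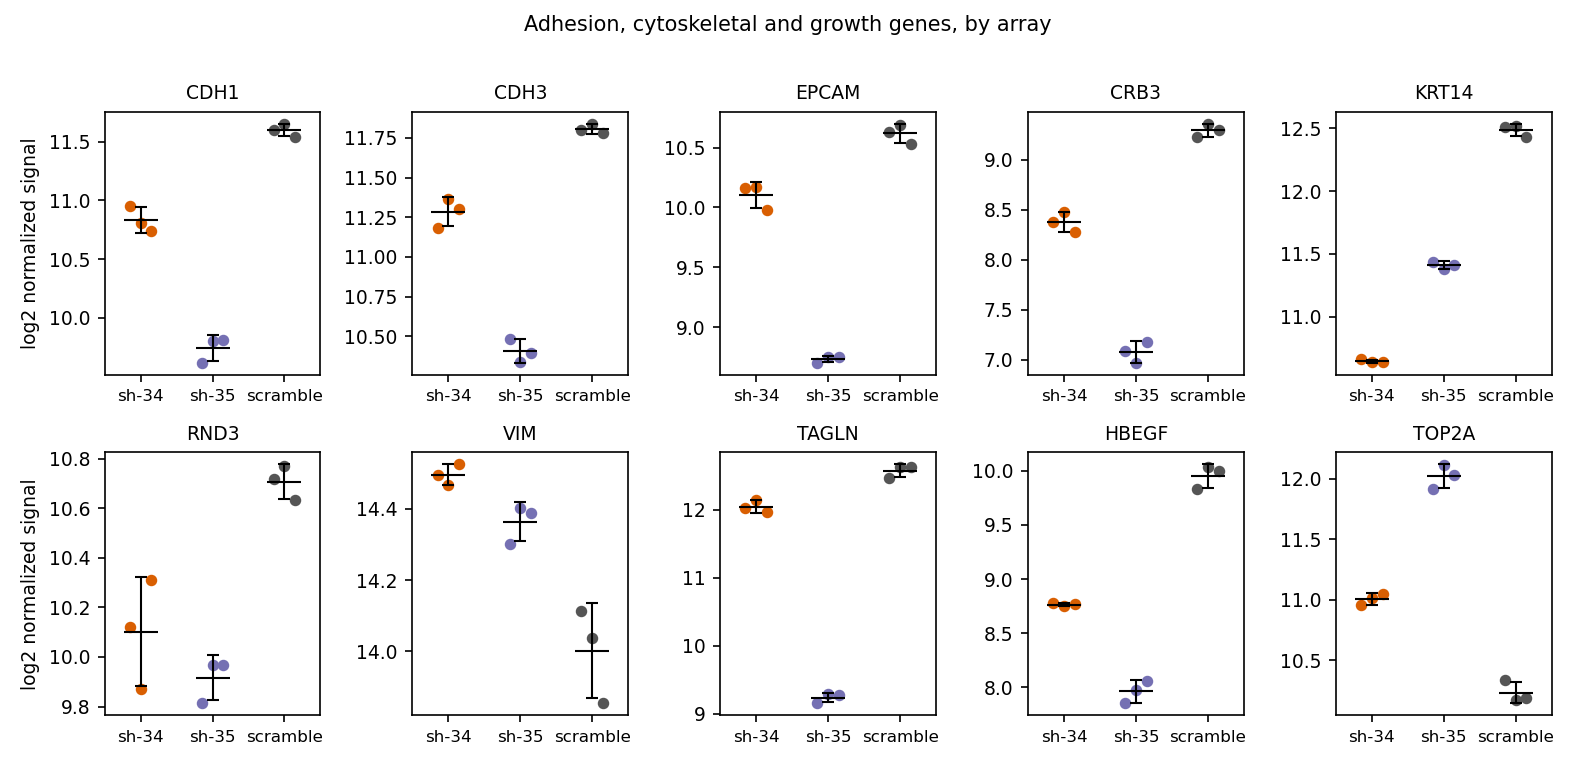
Log2 normalized signal on each array for genes of adhesion, the cytoskeleton and growth, with sh-34 and sh-35 left of scramble. Points are arrays, long bars group means and whiskers 1 SD (n = 3), and vertical scales differ between panels and do not start at 0. CDH1, CDH3, EPCAM, CRB3 and TAGLN are lowest with sh-35, KRT14 is lowest with sh-34, and VIM and TOP2A are above scramble with each hairpin.

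Markers of both mammary lineages fell in part. KRT14, the basal keratin 14 gene, had 10.66, 10.64 and 10.64 with sh-34 and 11.44, 11.38 and 11.41 with sh-35, against 12.51, 12.52 and 12.43 in scramble. The 3 groups formed separate narrow bands, with sh-34 lowest, and the fall was 1.46 on the log2 scale, or 2.75-fold (SE 0.061; limma adjusted p = 5.8e-08). Its partner KRT5 read −0.42 with sh-34 and −0.045 with sh-35, and was not called the same way. Of 10 tested basal markers, 4 fell with both hairpins (40%, against 8.54% of all genes) and 0 rose. Besides KRT14, the shared falls were CDH3, ITGA6 and LAMB3, which also belong to the adhesion lists above. The comparison of both hairpins called 1 of the 10 higher and 6 lower, against 19.9% and 20.9% of all genes. In opposite directions 1 of them was called, against 3.07% of all genes.

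Of 12 tested luminal markers, 6 fell with both hairpins (50%, against 8.54% of all genes) and 1 rose (8.33%, against 9.5%). ALDH1A3, a retinaldehyde dehydrogenase of luminal progenitors, had 11.23, 11.05 and 11.13 with sh-34 and 11.35, 11.68 and 11.55 with sh-35, against 12.61, 12.67 and 12.58 in scramble. Hairpin and scramble arrays were well apart, and the fall was 1.29 (SE 0.083; limma adjusted p = 8.4e-07). CD24, a surface glycoprotein, fell by 0.87 (SE 0.072; limma adjusted p = 5e-06), with −0.85 and −0.90 for the hairpins. KRT15, a keratin in the luminal list, fell by 1.08 (SE 0.12; limma adjusted p = 3.5e-05). FOXA1, a luminal transcription factor, was above background on 2 sh-34, 0 sh-35 and 3 scramble arrays. It read −0.77 with sh-34 and was at least 1.92-fold lower with sh-35. The rise was MUC1, a transmembrane mucin, with 11.05, 11.36 and 11.37 with sh-34 and 11.41, 11.09 and 10.82 with sh-35, against 10.26, 10.20 and 10.09 in scramble. It rose by 1.002 (SE 0.12; limma adjusted p = 6.6e-05), and its other probes read 0.68 and 1.03.

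Squamous differentiation genes fell with both hairpins in 8 of 18 cases (44.4%, against 8.54% of all genes), with 0 shared rises. KRT16, a keratin of activated epidermis, had 9.20, 8.81 and 9.10 with sh-34 and 8.92, 8.80 and 8.75 with sh-35, against 10.01, 9.94 and 9.91 in scramble. All hairpin values were below all scramble values, and the fall was 1.02 (SE 0.088; limma adjusted p = 6.4e-06). KRT6C fell by 0.81 and SPRR1B, a cornified envelope precursor, by 1.21. KLK5, a kallikrein protease of the epidermis, was above background on no hairpin array and at least 1.72-fold lower. The list's median was −0.83 with sh-34 and −0.32 with sh-35, and 4 of its 18 members were called in opposite directions, against 3.07% of all genes. S100A8 and S100A9, which encode the subunits of calprotectin, were both lower with sh-34 and higher with sh-35. S100A8 read −1.504 and 1.11, and S100A9 read −0.85 and 0.88.

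Mesenchymal genes rose in part. Of 18 tested, 4 rose with both hairpins (22.2%, against 9.5% of all genes) and 1 fell (5.56%, against 8.54%). VIM, the intermediate filament vimentin, had 14.50, 14.47 and 14.53 with sh-34 and 14.30, 14.40 and 14.39 with sh-35, against 14.11, 14.04 and 13.85 in scramble. Its arrays did not overlap, and it rose by 0.43 (SE 0.073; limma adjusted p = 0.00072). LOX, lysyl oxidase, a collagen cross-linking enzyme, had 7.92, 7.98 and 8.11 with sh-34 and 9.35, 9.54 and 9.40 with sh-35, against 7.26, 7.26 and 7.01 in scramble. The rise of 1.54 (SE 0.083; limma adjusted p = 3.1e-07) was 0.82 with sh-34 and 2.25 with sh-35. S100A4, a calcium-binding protein of motile cells, rose by 1.07 (SE 0.067; limma adjusted p = 7.1e-07). By contrast TAGLN, given below with the contractile genes, fell with both hairpins, with a pooled change of −1.93.

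The usual inducers and partners of the mesenchymal state moved less. CDH2, N-cadherin, had 10.50, 10.59 and 10.41 with sh-34 and 10.52, 10.53 and 10.38 with sh-35, against 10.36, 10.50 and 10.26 in scramble. These groups overlapped, and the change of 0.12 (SE 0.077; limma adjusted p = 0.25) did not pass. FN1, fibronectin, read −0.27 with sh-34 and 0.52 with sh-35, and its pooled change of 0.12 became −0.047 when its probes were averaged, passing in neither case. SNAI2 read 0.24 (SE 0.093; limma adjusted p = 0.057), just outside the threshold, and was inside it in 7 of the alternatives. A dimmer SNAI2 probe read 0.25 and passed (limma adjusted p = 0.036). TWIST1 read 0.33 (SE 0.075; limma adjusted p = 0.0046) but did not pass with sh-34 alone. SNAI1 and ZEB1 were above background on 0 arrays.

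Contractile actin genes fell in larger part than they rose. Of 26 tested, 9 fell with both hairpins (34.6%, against 8.54% of all genes) and 1 rose (3.85%, against 9.5%). TAGLN, transgelin, an actin cross-linker, had 12.03, 12.15 and 11.97 with sh-34 and 9.15, 9.28 and 9.27 with sh-35, against 12.47, 12.64 and 12.63 in scramble. Both hairpin groups were below scramble, but the change was −0.53 with sh-34 and −3.34 with sh-35, so the pooled −1.93 (SE 0.074; limma adjusted p = 4.3e-08) is a mean of unlike values, and in the fit of 2 groups it did not pass (adjusted p = 0.11). TPM4, a tropomyosin, had 9.12, 9.21 and 9.49 with sh-34 and 9.07, 9.02 and 9.02 with sh-35, against 9.94, 10.15 and 10.13 in scramble. It fell by 0.92 (SE 0.090; limma adjusted p = 1.6e-05). For sh-35 minus sh-34 it read −0.24 (SE 0.10; limma adjusted p = 0.084). MYL9, a myosin regulatory light chain, read −0.56 with sh-34 and was above background on 0 sh-35 arrays, where it was at least 2.28-fold lower. ACTN4, alpha-actinin 4, fell by 0.61. The rise was ACTA2, smooth muscle actin, at 0.48 (SE 0.075; limma adjusted p = 0.00038; 0.057 in the fit of 2 groups).

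Genes of the EGF receptor family, its ligands and regulators moved in both directions. MCF10A cells are usually grown with EGF, which signals through the EGF receptor to Ras and ERK. Among the 10 genes tested, 3 rose (30%, against 9.5% of all genes) and 2 fell (20%, against 8.54%) with both hairpins. The shared falls were the ligands HBEGF and TGFA. HBEGF, heparin-binding EGF, had 8.78, 8.75 and 8.77 with sh-34 and 7.85, 7.98 and 8.06 with sh-35, against 9.83, 10.03 and 9.995 in scramble. The 3 groups did not overlap, and HBEGF fell by 1.59, or 3-fold (SE 0.074; limma adjusted p = 1.4e-07). TGFA, transforming growth factor alpha, changed by −0.93 with sh-34 and −0.25 with sh-35, and in the fit of 2 groups it did not pass (adjusted p = 0.072). A dimmer TGFA probe read −0.72 with sh-34 and −0.028 with sh-35, so the fall with sh-35 rests on the brightest probe. NRG1, the other ligand tested, read 0.046 with sh-34 and was at least 1.49-fold lower with sh-35 at its brightest probe, and was not called the same way. The authors' deposited table, however, holds an NRG1 probe with signed fold changes of −1.49 with sh-34 and −1.75 with sh-35. The comparison of both hairpins called 3 of the 10 genes higher and 5 lower, against 19.9% and 20.9% of all genes. Lower were also the receptor genes EGFR at −0.34 (limma adjusted p = 0.0021) and ERBB3 at −0.34 (limma adjusted p = 0.047). Neither receptor gene was called the same way. The shared rises were LRIG1, LRIG3 and ERRFI1, the last a feedback inhibitor of the EGF receptor. LRIG1 and LRIG3 encode related membrane proteins, and LRIG1 promotes degradation of the EGF receptor. LRIG1 had 9.27, 9.06 and 8.998 with sh-34 and 9.26, 9.28 and 9.32 with sh-35, against 8.42, 8.37 and 8.32 in scramble. It rose by 0.83 (SE 0.074; limma adjusted p = 8.7e-06) without overlap, and LRIG3 rose by 0.39 (SE 0.072; limma adjusted p = 0.0013).

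Genes induced by ERK fell in 6 of 22 cases with both hairpins (27.3%, against 8.54% of all genes) and rose in 0. PHLDA1 fell by 0.77 (SE 0.081; limma adjusted p = 2.6e-05) and IER3, an immediate early gene, by 0.53 (SE 0.087; limma adjusted p = 0.00055). DUSP6, a phosphatase that switches ERK off, had 10.08, 9.91 and 10.14 with sh-34 and 9.98, 10.23 and 10.07 with sh-35, against 10.38, 10.48 and 10.56 in scramble. Hairpin arrays lay below scramble arrays, by 0.40 (SE 0.083; limma adjusted p = 0.0023), and DUSP4, a related phosphatase, fell by 0.55. MYC fell by 0.35 (SE 0.070; limma adjusted p = 0.0022). CCND1, cyclin D1, was lower with sh-34 at −0.99 but read 0.091 with sh-35, and was not called the same way. The list's median was −0.27 with sh-34 and −0.017 with sh-35.

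Genes of mitosis rose with both hairpins and further with sh-35. Of 55 tested genes of G2 and mitosis, 36 rose with both (65.5%, against 9.5% of all genes) and 0 fell. The comparison of both hairpins called 52 higher and 0 lower, against 19.9% and 20.9% of all genes. The list's median log2 change was 0.78, from 0.33 with sh-34 and 1.33 with sh-35. In the test of sh-35 minus sh-34, 53 members were higher with sh-35, against 20.7% of all genes. TOP2A, the topoisomerase that untangles replicated chromosomes, had 10.95, 11.02 and 11.05 with sh-34 and 11.91, 12.11 and 12.03 with sh-35, against 10.33, 10.17 and 10.19 in scramble. The groups stood in 3 separate bands, and TOP2A rose by 1.28 (SE 0.072; limma adjusted p = 3.7e-07). CCNB2, cyclin B2, a partner of the mitotic kinase CDK1, had 10.70, 10.58 and 10.69 with sh-34 and 11.56, 11.41 and 11.58 with sh-35, against 9.98, 9.80 and 9.88 in scramble. It rose by 1.199 (SE 0.073; limma adjusted p = 5.9e-07), with the same order of groups. CDC25C, a phosphatase that activates that kinase, rose by 1.24, and CENPF, a kinetochore protein gene, by 1.28. CDKN3, a phosphatase gene that peaks around mitosis, rose by 1.08.

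Many late cell cycle promoters hold a cell cycle genes homology region, CHR, with the letters TTTGAA, often beside CCAAT boxes. These letters were looked for on both strands from 250 bases before to 50 bases after each start in RefSeq's GRCh38.p14 promoters. They were found for 18.2% of 27305 genes and 14% of the 7434 tested genes with a promoter in the table. Of 47 genes of the mitosis list with a promoter, 33 held them (70.2%), as did 21 of the 32 that rose with both hairpins (65.6%). Among all shared rises the share was 23.9%, against 8.68% of all shared falls. A CHR with at least 2 CCAAT pentamers, CCAAT on either strand, was found in 2.2% of all genes. It was found in 19 of the 47 listed genes (40.4%) and in 14 of the 32 that rose (43.8%). For both patterns the share among the 32 was near that of the whole list. The promoters of CCNB2 and TOP2A are shown, as the genes whose levels are given above, with every TTTGAA or its reverse complement in capitals. A match is a description of these letters and not a mapped site.
CCNB2, chr15:59104896-59105195, plus strand: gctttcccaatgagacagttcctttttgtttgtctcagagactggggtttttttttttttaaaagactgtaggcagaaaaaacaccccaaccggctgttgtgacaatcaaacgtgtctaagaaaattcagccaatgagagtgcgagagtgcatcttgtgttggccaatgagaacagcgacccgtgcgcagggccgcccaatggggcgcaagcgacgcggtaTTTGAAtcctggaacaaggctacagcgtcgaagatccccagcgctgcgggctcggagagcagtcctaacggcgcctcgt
TOP2A, chr17:40417847-40418146, minus strand: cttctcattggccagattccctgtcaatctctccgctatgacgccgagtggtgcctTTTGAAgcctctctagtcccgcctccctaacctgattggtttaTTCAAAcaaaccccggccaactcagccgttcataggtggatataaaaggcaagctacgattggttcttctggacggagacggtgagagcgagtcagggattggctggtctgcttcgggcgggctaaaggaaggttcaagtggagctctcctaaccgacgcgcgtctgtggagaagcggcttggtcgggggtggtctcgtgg
The match in CCNB2 begins 29 bases before the start, and those in TOP2A 194 and 151 bases before it. Each of these promoters also holds 4 CCAAT pentamers.

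Genes of DNA replication rose with both hairpins in 9 of 42 cases (21.4%, against 9.5% of all genes) and fell in 0. With sh-34, 10 were called higher, against 19% of all genes, and with sh-35, 38, against 20.4%. In all, 36 were higher with sh-35 than with sh-34 in the test of that difference, against 20.7% of all genes. PRIM1, a primase subunit, had 8.83, 8.46 and 8.73 with sh-34 and 9.54, 9.56 and 9.58 with sh-35, against 8.14, 8.18 and 8.32 in scramble. Hairpin arrays were above scramble, and the rise was 0.90 (SE 0.087; limma adjusted p = 1.3e-05). TYMS, thymidylate synthase, rose by 0.70 and TK1, thymidine kinase, by 0.67. Inhibitors of cyclin-dependent kinases split. CDKN1B, p27, rose by 0.83 (SE 0.085; limma adjusted p = 2.2e-05), while CDKN1A, p21, fell by 0.47 at its brightest probe, read 0.12 at a dimmer one and did not pass as their mean (limma adjusted p = 0.064).

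Interferon-induced genes rose with both hairpins in 13 of 32 cases (40.6%, against 9.5% of all genes) and fell in 0. Their median log2 change was 0.42, or 0.33 with 4 genes at their lower bounds. IFIT1, an antiviral protein that binds foreign RNA, had 7.38, 7.55 and 7.89 with sh-34 and 8.67, 8.997 and 8.84 with sh-35, against 6.91, 6.81 and 7.12 in scramble. All hairpin arrays lay above scramble, sh-35 highest, with a rise of 1.28 (SE 0.12; limma adjusted p = 1e-05). IFIT2, its neighbour and relative, had 8.75, 8.85 and 8.95 with sh-34 and 9.49, 9.40 and 9.17 with sh-35, against 7.93, 7.65 and 7.95 in scramble, and rose by 1.26 (SE 0.096; limma adjusted p = 2.5e-06). IFI44 rose by 0.501 with sh-34 and 1.64 with sh-35, and in the fit of 2 groups its adjusted p was 0.0501. IFI27 went against the pattern, at −1.09 with sh-34 and 1.06 with sh-35.

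Interferon-stimulated response elements were looked for as the letters TTTC repeated after any 2 bases, on both strands of the same windows. They were found for 4.38% of all genes and 3.95% of tested genes, for 21 of 31 interferon genes with a promoter (67.7%) and for 8 of the 11 that rose with both hairpins (72.7%). The IFIT1 promoter is shown for its pair of matches, in capitals, which begin 116 and 103 bases before the start.
IFIT1, chr10:89392373-89392672, plus strand: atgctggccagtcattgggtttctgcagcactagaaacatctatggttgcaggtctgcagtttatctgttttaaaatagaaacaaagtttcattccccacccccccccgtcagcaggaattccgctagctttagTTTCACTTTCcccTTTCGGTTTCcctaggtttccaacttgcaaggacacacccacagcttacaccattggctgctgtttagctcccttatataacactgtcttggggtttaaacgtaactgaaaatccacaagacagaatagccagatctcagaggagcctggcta

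Genes that load peptides on MHC class I rose with both hairpins in 2 of 16 cases, a share near that of all genes (12.5%, against 9.5%). These were PSMB9 and PSMB8, which also belong to the interferon list. PSMB9, a catalytic subunit of the immunoproteasome, had 6.94, 7.01 and 7.02 with sh-34 and 8.03, 8.01 and 7.93 with sh-35, against 5.68, 6.12 and 6.09 in scramble. It was above background on no scramble array, passed the filter through the hairpin arrays alone, and was at least 1.80-fold higher with the hairpins. PSMB8, its companion subunit, rose by 0.52 (SE 0.075; limma adjusted p = 0.00024), and dimmer probes read 0.083 and 0.48 with sh-34.

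Of 19 tested NF-kB subunits, regulators and inflammatory genes, 6 rose with both hairpins (31.6%, against 9.5% of all genes) and 0 fell. The comparison of both hairpins called 11 higher and 2 lower, against 19.9% and 20.9% of all genes. Those 2 were PTGS2 at −0.59 and CSF3 at −0.36. Of 8 interleukin-1 family genes, 2 fell with both hairpins (25%, against 8.54% of all genes) and 0 rose. IL1A, the alpha form of interleukin-1, had 12.19, 12.17 and 12.21 with sh-34 and 12.30, 12.37 and 12.27 with sh-35, against 13.21, 13.17 and 13.10 in scramble. It was lower on every hairpin array, by 0.91 (SE 0.063; limma adjusted p = 1.4e-06), beside the fall of IL1B given above. LCN2, lipocalin 2, an iron-sequestering defence protein, had 7.93, 7.50 and 7.64 with sh-34 and 8.14, 7.65 and 7.77 with sh-35, against 6.91, 6.99 and 6.76 in scramble. Its hairpin arrays were all above scramble, by 0.89 (SE 0.12; limma adjusted p = 0.00015). SAA1, an acute phase protein gene, rose by 0.64 at its brightest probe, but its other probes read 0.0068 and 0.031 with sh-34, so the rise with that hairpin rests on 1 of 3 probes. C3, the central complement gene, rose by 0.47 (SE 0.084; limma adjusted p = 0.00094), and a dimmer probe read 0.39 and did not pass. TNFAIP2, counted among the 6 rises, was above background on the sh-35 arrays only. There it was at least 1.06-fold higher, and no change is given for sh-34.

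Histone genes were higher with sh-34 than with sh-35 in 13 of 21 cases, against 22% of all genes. Of the 21 tested, 3 rose with both hairpins (14.3%, against 9.5% of all genes) and 0 fell with both. Another 5 were called in opposite directions, against 3.07% of all genes. The list's median was 0.81 with sh-34 and 0.11 with sh-35. H2BC21 had 9.33, 9.37 and 9.20 with sh-34 and 8.15, 8.35 and 8.21 with sh-35, against 8.06, 7.81 and 7.87 in scramble. Every hairpin array was above scramble, but the rise was 1.39 with sh-34 and 0.33 with sh-35. H2BC5 rose by 1.11 and 0.25. H2BC8, above background on 3 sh-34, 1 sh-35 and 0 scramble arrays, was at least 1.46-fold higher. In the fit of 2 groups none of the 3 passed, with adjusted p from 0.079 to 0.11. H2BC4 was called in opposite directions, at 1.23 with sh-34 and at least 1.19-fold lower with sh-35, where it was above background on 0 arrays.

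Histone H2B promoters carry an octamer, ATTTGCAT, which was found on either strand for 2.19% of all genes, 22 of 47 histone genes with a promoter (46.8%) and 2 of the 3 that rose with both hairpins. Those promoters are shown with the octamer in capitals, 48 bases before the start in H2BC8 and 46 in H2BC21.
H2BC8, chr6:26216639-26216938, minus strand: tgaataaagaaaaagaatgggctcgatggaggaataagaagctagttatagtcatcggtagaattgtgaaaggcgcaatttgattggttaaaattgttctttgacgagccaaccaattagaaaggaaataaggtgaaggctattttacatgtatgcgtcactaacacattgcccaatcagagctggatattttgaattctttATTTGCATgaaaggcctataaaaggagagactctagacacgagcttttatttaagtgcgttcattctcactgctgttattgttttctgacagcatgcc
H2BC21, chr1:149886633-149886932, minus strand: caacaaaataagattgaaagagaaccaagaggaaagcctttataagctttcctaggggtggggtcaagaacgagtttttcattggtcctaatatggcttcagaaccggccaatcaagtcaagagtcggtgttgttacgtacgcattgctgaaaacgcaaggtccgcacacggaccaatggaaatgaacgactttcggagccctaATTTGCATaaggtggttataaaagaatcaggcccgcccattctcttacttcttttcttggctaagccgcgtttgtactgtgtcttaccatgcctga

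**Figure D4:**
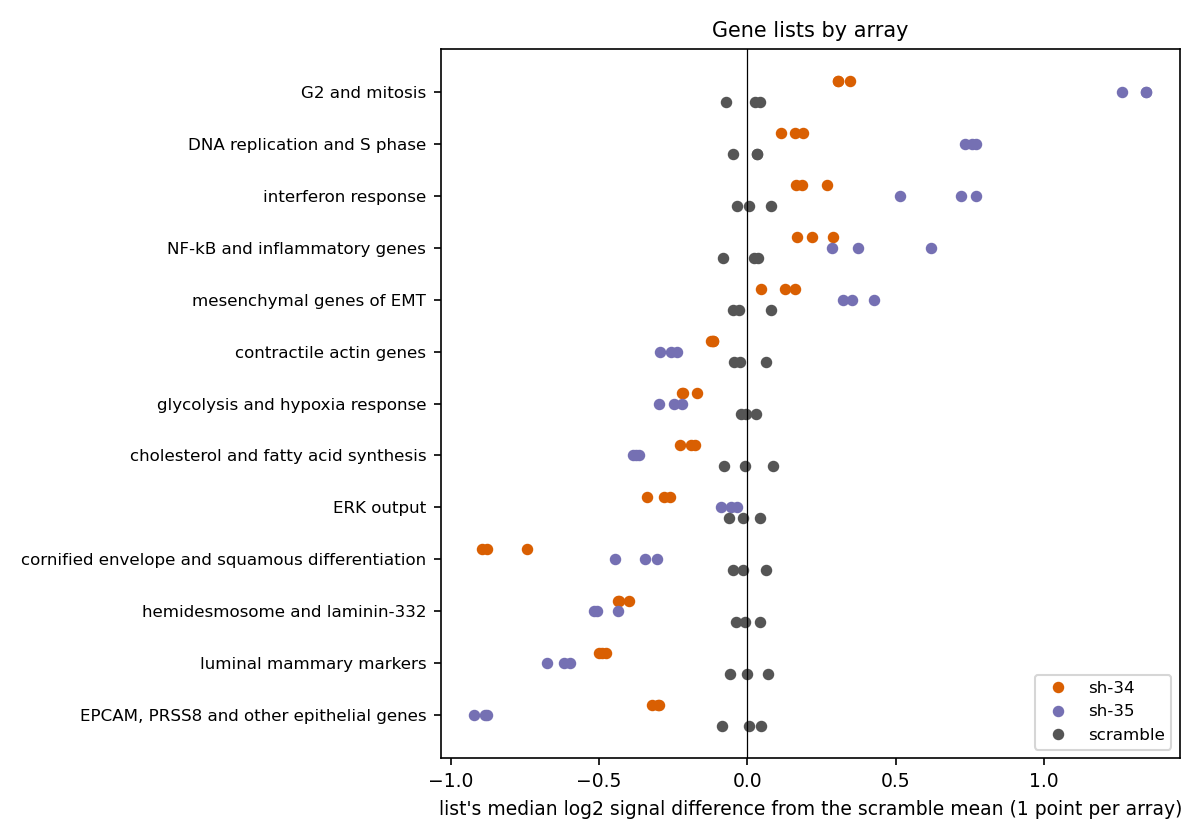
Each point is 1 array and gives the median, over the tested genes of a list, of the log2 signal minus that gene's scramble mean (horizontal axis). Orange points are sh-34, purple sh-35 and grey scramble, which lies around 0 by construction. G2 and mitosis genes sit at 0.30 to 0.35 on sh-34 arrays and 1.26 to 1.34 on sh-35 arrays, and squamous differentiation genes at −0.89 to −0.74 with sh-34 and −0.44 to −0.30 with sh-35.

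Genes of glucose and lipid metabolism fell in part. Of 34 tested glycolysis and hypoxia genes, 11 fell with both hairpins (32.4%, against 8.54% of all genes) and 1 rose (2.94%, against 9.5%). HK2, the hexokinase that starts glycolysis, had 7.66, 7.80 and 7.75 with sh-34 and 7.62, 7.93 and 7.34 with sh-35, against 9.05, 8.71 and 8.74 in scramble. Its hairpin arrays were all below scramble, by 1.15 (SE 0.12; limma adjusted p = 2.6e-05). ALDOC, an aldolase, fell by 0.70 (SE 0.062; limma adjusted p = 7.8e-06). CA12, a hypoxia-induced carbonic anhydrase, changed by −1.81 with sh-34 and −0.40 with sh-35, and did not pass in the fit of 2 groups (adjusted p = 0.080). The rise was SLC2A3, the glucose transporter GLUT3, with 9.50, 9.61 and 9.38 with sh-34 and 9.75, 9.52 and 9.58 with sh-35, against 8.98, 8.78 and 8.79 in scramble. It rose by 0.71 (SE 0.083; limma adjusted p = 5.2e-05).

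Of 29 tested genes of cholesterol and fatty acid synthesis, 11 fell with both hairpins (37.9%, against 8.54% of all genes) and 0 rose. Their median was −0.31. ELOVL6, a fatty acid elongase, had 11.06, 11.28 and 11.23 with sh-34 and 11.30, 11.26 and 11.34 with sh-35, against 11.89, 11.84 and 11.86 in scramble. The hairpin arrays fell short of every scramble array, by 0.62 (SE 0.069; limma adjusted p = 3.9e-05). ACLY, which makes acetyl-CoA from citrate, fell by 0.79 (SE 0.090; limma adjusted p = 4.5e-05) and MVD, of the mevalonate pathway, by 0.71 (SE 0.11; limma adjusted p = 0.00041). Of 41 tested oxidative phosphorylation genes, 0 rose and 1 fell with both hairpins (2.44%, against 8.54% of all genes). Their median of 0.065 became −0.044 with median scaling.

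Of 26 genes of the ATF4 amino acid response and the unfolded protein response, 4 fell with both hairpins (15.4%) and 1 rose (3.85%). The shares of all genes were 8.54% lower and 9.5% higher. SLC3A2 and SLC7A5 encode the heavy and light chains of an amino acid transporter. SLC3A2 had 10.89, 10.78 and 10.90 with sh-34 and 10.81, 10.82 and 10.85 with sh-35, against 11.67, 11.91 and 11.73 in scramble. It fell by 0.93 (SE 0.072; limma adjusted p = 3.2e-06), and SLC7A5 fell by 0.84 (SE 0.089; limma adjusted p = 2.8e-05), and for neither gene did sh-35 minus sh-34 pass. TRIB3, an ATF4 target, fell by 0.67. The shared rise was PSAT1, at 0.44. The comparison of both hairpins called 7 of the 26 genes higher and 10 lower, against 19.9% and 20.9% of all genes, so the list moved in both directions.

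Smaller lists held single genes that moved clearly. Of 12 metallothionein and zinc genes, 5 rose (41.7%, against 9.5% of all genes) and 2 fell (16.7%, against 8.54%) with both hairpins. MT1X, a metallothionein that binds zinc and copper, had 12.44, 12.48 and 12.50 with sh-34 and 12.97, 13.08 and 13.20 with sh-35, against 11.59, 11.43 and 11.66 in scramble. No hairpin array overlapped scramble, and MT1X rose by 1.22 (SE 0.077; limma adjusted p = 7.5e-07). MT1G rose by 0.89, although metallothionein genes are near-identical and their probes may share signal. Of 20 genes of the plasminogen system, metalloproteinases and serpins, 5 rose (25%, against 9.5% of all genes) and 2 fell (10%, against 8.54%). SERPINA1, alpha-1-antitrypsin, had 10.70, 11.03 and 10.89 with sh-34 and 11.68, 11.58 and 11.58 with sh-35, against 9.92, 9.58 and 9.85 in scramble, and rose by 1.46 (SE 0.095; limma adjusted p = 8.5e-07). Its neighbours SERPINA3 and SERPINA5 on chromosome 14 changed most with sh-35. SERPINA3 rose by 0.58 and 2.22, with an adjusted p of 0.061 in the fit of 2 groups. SERPINA5, above background on 0 scramble arrays, was at least 1.03-fold higher with sh-34 and 3.88-fold with sh-35. PLAT, tissue plasminogen activator, rose by 0.72 (SE 0.092; limma adjusted p = 9.1e-05).

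In the TGF-beta list, 2 of 15 genes rose (13.3%) and 1 fell (6.67%) with both hairpins, and in the YAP-TEAD list 2 of 15 rose (13.3%) and 3 fell (20%). Over all genes the shares were 9.5% higher and 8.54% lower, so apart from the YAP-TEAD falls these shares were near those of all genes. TGFBR3, betaglycan, a TGF-beta co-receptor, had 9.97, 9.95 and 9.83 with sh-34 and 9.82, 9.91 and 9.85 with sh-35, against 9.02, 8.93 and 9.002 in scramble. It rose by 0.90 (SE 0.065; limma adjusted p = 1.9e-06), and the signalling receptor TGFBR2 by 0.57 (SE 0.067; limma adjusted p = 5.4e-05). FST, follistatin, which binds activins, fell by 1.02 (SE 0.088; limma adjusted p = 6.6e-06). CCN1, a matricellular YAP target, had 9.59, 9.61 and 9.67 with sh-34 and 9.20, 9.26 and 9.44 with sh-35, against 10.21, 10.48 and 10.57 in scramble. Hairpin arrays were below scramble by 0.96 (SE 0.090; limma adjusted p = 1.1e-05). F3, tissue factor, fell by 0.79, while LATS2, a kinase that restrains YAP, rose by 0.71. Of 23 p53 targets, 3 rose and 3 fell with both hairpins (13% each, against 9.5% and 8.54% of all genes), the rises including SESN1 at 0.58 and RRM2B at 0.88.

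**Figure D5:**
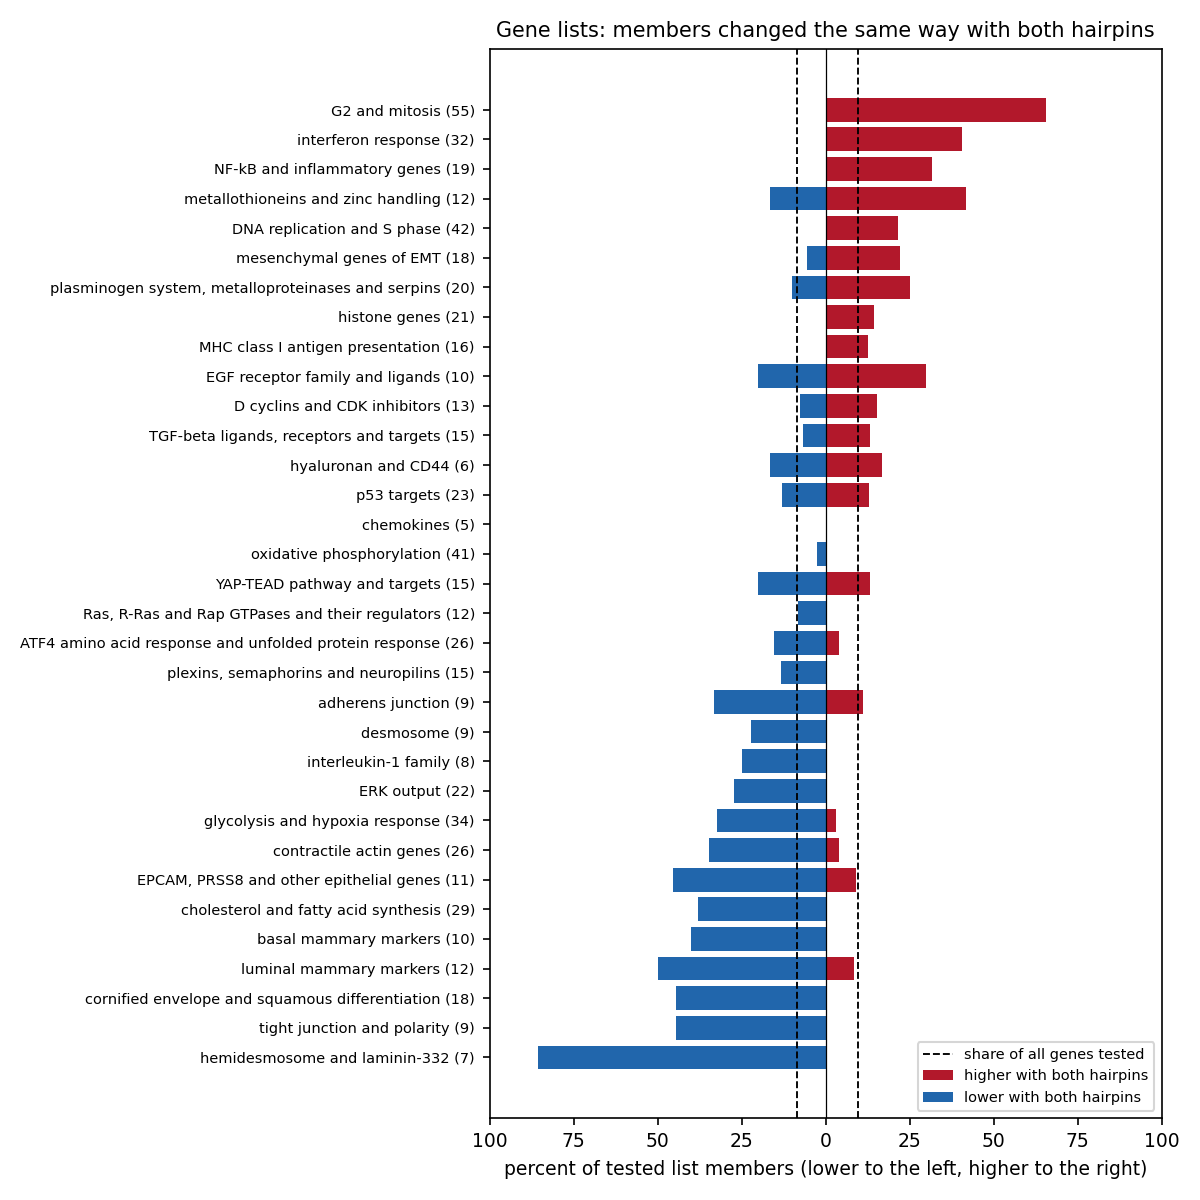
For each list shown, with the number of genes tested in brackets, the bar to the left gives the percent of them lower with both hairpins and the bar to the right the percent higher with both. Dashed lines mark the shares over all 8931 genes tested, 8.54% lower and 9.5% higher. G2 and mitosis reaches 65.5% higher and hemidesmosome and laminin-332 reaches 85.7% lower, and lists with few genes tested move in large steps.

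Genes that the hairpins moved in opposite directions numbered 274 (3.07%), 135 of them higher with sh-34 and 139 higher with sh-35, and 227 of them (2.54%) did not pass when the hairpins were pooled. GXYLT1, a xylosyltransferase gene, had 7.73, 7.63 and 7.69 with sh-34 and 10.25, 9.95 and 10.06 with sh-35, against 8.57, 8.41 and 8.51 in scramble. It was lower than scramble with sh-34 and higher with sh-35, at −0.81 and 1.59. TRAK2, an adaptor of mitochondrial transport, read −1.24 with sh-34 and 0.81 with sh-35. For such genes the pooled change is a mean of unlike values.

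The authors' deposited table lists 358 probes with a fold change for each hairpin. In it, 152 probes were higher and 186 lower with both hairpins, and 20 had opposite signs. Of the 285 genes it names, 273 were tested here. Of these, 248 were called the same way in both hairpins, against 18% of all genes tested. The listed changes come from the same 9 arrays, so the overlap is a description and not a replication. The authors' deposited table gives KLRC3 signed fold changes of 5.19 with sh-34 and 4.01 with sh-35, CD14 3.21 and 3.02, and KLRC2 4.46 and 2.79. At the other end, the authors' deposited table gives IL1B −6.85 and −5.34, and FOLR3 −4.70 and −3.82, where a minus sign marks a fall.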

How the data were processed

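Illumina bead arrays measured total RNA of 9 MCF10A samples. The authors' deposited signal table gives an intensity per probe and array and a detection p-value, per the file headers. BeadStudio and Partek appear in the submitters' processing notes, without versions. Deposited intensity medians were 46.6 to 53.4 and no value was below 0, so neither quantile normalization nor background subtraction had been applied as far as the values show. The deposited series matrix holds log2 values, which equal the log2 signal less each probe's median over the 9 arrays plus 5.62, and the array medians were 5.57 to 5.74. The authors' deposited table adds a p-value, a ratio and a signed fold change, here treated as a score, for each hairpin.

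Signals were corrected with limma's (3.58.1, R 4.3.3) normal-exponential model on detection p-values (offset 16) and quantile normalized. Probes with a detection p under 0.01 on at least 3 arrays were kept, 12866 in all. A single symbol was available for 28098 of 48803 probes, several for 13 and none here for 20692, and 28059 Entrez identifiers matched RefSeq. Each gene took its brightest probe. One limma model with 3 groups (6 residual and 5.42 prior degrees of freedom) gave every contrast, with Benjamini-Hochberg adjustment over 8931 genes. The number of arrays limits the precision.

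Where no array of a group detected a gene, a fold against that group is given as a lower bound, or not at all. The brighter group's mean over all its arrays was set against the dim group's mean of, per array, the higher of the lowest signal called above background and the probe's own. Named genes were RND1, the largest shared rises and falls, up to 6 members of a list with the smallest p, the largest opposite changes, the ends of the authors' deposited table and a set of adhesion and signalling genes. Not all that the rule allows are named, and 1 list is not reported here. The members, the 39 lists and the tests were chosen with earlier results of these data known. Scripts were tested on simulated data. Replicate numbers did not pair samples, since deviations of equal numbers correlated by −0.024 to 0.0529.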

Additional observations from a re-analysis of the deposited data

Results flagged for a closer look

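The hairpins share a target but differed in how far they moved many genes. The following named genes drew attention because sh-35 minus sh-34 passed limma's adjusted p of 0.05, and each value is that log2 difference. Higher with both hairpins and more so with sh-35 were cell cycle genes CDKN3 1.10, TOP2A 1.01, CENPF 0.95, CDC25C 0.94, PRIM1 0.89, CCNB2 0.86, TK1 0.69, TYMS 0.57 and CDKN1B 0.45. Interferon and inflammatory genes with larger rises under sh-35 were IFIT1 1.23, IFI44 1.14, PSMB9 1.00, IFIT2 0.50, PSMB8 0.41 and SAA1 0.34. Rises that were larger with sh-35 also included SERPINA5 1.91, SERPINA3 1.64, LOX 1.43, SERPINA1 0.74, MT1X 0.61, LATS2 0.45, CRACDL 0.32, ITGA10 0.28 and PKP4 0.27. Rises that were larger with sh-34 were H2BC8 −1.33, H2BC21 −1.06, NWD1 −1.05, LAPTM5 −1.003, H2BC5 −0.86, KLRC2 −0.79, ACTA2 −0.48, KLRC3 −0.47, PLAC8 −0.37, S100A4 −0.35 and TGFBR2 −0.21. Falls that were larger with sh-35 were TAGLN −2.81, EPCAM −1.37, CRB3 −1.30, CDH1 −1.09, JUP −0.99, CDH3 −0.88, HBEGF −0.80, RAP1B −0.66, F3 −0.43, ACTN4 −0.43, CLDN7 −0.40, DST −0.37, CCN1 −0.33 and PHLDA1 −0.27. Falls that were larger with sh-34 were CA12 1.41, HAS3 0.96, KRT14 0.76, TGFA 0.68, KRT15 0.67, ACLY 0.64, DSC2 0.52, ITGA6 0.52, KIF3B 0.46, KRT6C 0.41, ALDH1A3 0.39, IL1B 0.34, SEMA3F 0.31 and CA2 0.29. Called in opposite directions against scramble were S100A8 2.62, GXYLT1 2.40, IFI27 2.15, TRAK2 2.05 and S100A9 1.72. Not called the same way in both hairpins, but different between them, were CCND1 1.08, FN1 0.80, RRAS −0.49 and KRT5 0.38. A positive value means a higher level with sh-35. Where 1 hairpin had no array above background, sh-35 against sh-34 is a bound: TNFAIP2 was at least 1.10-fold higher, and FOXA1 at least 1.12-fold, MYL9 at least 1.54-fold and H2BC4 at least 2.79-fold lower with sh-35. The cause of these differences was not tested, and the probe for RND1 was below background on every array.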

How the results depend on the processing

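The p-values rest on 3 arrays a group. With the hairpins as 1 group, both hairpins minus scramble called 1563 genes, 827 higher and 736 lower, against 3638 in the model of 3 groups, since the difference between hairpins counts there as error. A further requirement of at least 2-fold left 198 genes, 124 higher and 74 lower, and 81 changed the same way, 51 higher and 30 lower. Replicate number as a block gave 3543 genes called and 1579 the same way. Leaving out each array in turn gave 2923 to 3481 genes called, 1487 to 1677 higher and 1433 to 1804 lower, 1290 to 1512 the same way, and 3209 to 3812 for sh-35 minus sh-34. Over cyclic loess, median scaling, the series matrix, an offset of 50, uncorrected signals, no filter or detection on all 9 arrays, the mean of a gene's probes and a variance trend with a robust fit, calls ranged from 3118 to 3930 and shared calls from 1279 to 1789. Of the 1611 shared genes, 1190 to 1599 were called again. For 135 named genes, 2617 alternative values kept their direction and side of the threshold, 16 lost and 7 gained the call, and 2 changed sign. Those were PLXNB1, whose leave-one-out values ran from −0.14 to 0.0089, the last without scramble replicate 2, and FN1, at −0.047 as a mean of probes. The cause was not tested. List medians moved by more than the spread between arrays 72 times, 13 of them with no filter, which adds dim genes. The squamous median became −0.074 with no filter, against −0.30, the luminal −0.079, against −0.50, and that of the EGF receptor family −0.0097 without sh-35 replicate 3, against −0.18. The sign changed for 5 lists: D cyclins, YAP-TEAD genes and oxidative phosphorylation became −0.021, −0.031 and −0.044 with median scaling and were also below 0 with the series matrix, while TGF-beta genes became −0.031 and fibroblast markers 0.0054 with no filter, and likewise with detection on all 9 arrays. Slide or scan as a block was not run, since the files name neither.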

Other observations

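Of 1565 probes above background that carry no single gene symbol, 135 were higher and 116 lower with both hairpins (16%), against 16.6% of all 12866 probes tested. The largest of them by the smaller of the hairpin changes was ILMN_1721354, at 9.03, 8.99 and 8.94 with sh-34 and 8.78, 8.61 and 8.65 with sh-35, against 11.34, 11.58 and 11.44 in scramble. It read −2.62 on the log2 scale for both hairpins minus scramble (limma adjusted p = 1.3e-08), beside −2.55 for IL1B. The largest rise was ILMN_1863604, at 8.41, 8.33 and 8.26 with sh-34 and 8.222, 8.176 and 8.198 with sh-35, against 6.58, 6.43 and 6.77 in scramble, a log2 change of 1.67 (limma adjusted p = 3.1e-07). No gene is given for these probes in the annotation used here.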
